A study of Mus musculus with 12 samples.

Results

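NF-κB is a family of dimeric transcription factors. Its subunits are RelA, c-Rel and RelB, encoded by Rela, Rel and Relb, and p50 and p52, which are processed from the precursors of Nfkb1 and Nfkb2. The described set comprises these subunits and the IκB proteins that control them, 10 genes in all, and was defined by name, as every probe set whose only gene symbol in the platform annotation is one of the 10. It held 18 of 34945 probe sets with 1 symbol and 9 of 18193 genes. No probe set in the annotation used carried Nfkb1 as its only symbol, so that gene is not analysed here.

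In resting cells the classical inhibitors IκBα, IκBβ and IκBε (Nfkbia, Nfkbib, Nfkbie) hold the dimers in the cytoplasm. The IκB kinase complex marks these inhibitors for degradation, which frees the dimers to enter the nucleus. The alternative pathway, driven by the kinase NIK, acts instead on the p100 precursor of Nfkb2, which mainly holds RelB. Bcl3 and Nfkbiz encode atypical IκB proteins that work in the nucleus and adjust the activity of bound dimers. In the thymus this system is known for its place downstream of the pre-T cell receptor, the T cell receptor and receptors of the tumour necrosis factor (TNF) family.

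The data are 12 Affymetrix arrays of thymocytes from C57BL/6 mice, 3 for each of 4 sorted subsets. DN cells were sorted as negative for CD4, CD8 and TCRβ, and DP cells as positive for CD4 and CD8. CD4SP cells had CD4 and high TCRβ but no CD8, and CD8SP cells had CD8 and high TCRβ but no CD4. In all groups the cells were untreated and were not cultured. The labels give neither the age of the mice nor whether replicates came from separate or pooled animals, so a p-value here speaks only of the spread among arrays, which may be technical.

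Every value is a log value of a probe set relative to its own mean over the 3 DP arrays, read here as log2. DP therefore lies at 0 for each gene, and neither levels nor signal over background are known, so levels cannot be set against each other between genes. Probe sets of 1 gene were averaged. Differences are given as log2 ± the standard error (SE) of a limma fit to all 12 arrays, with 3 arrays per group, and genes were called at a Benjamini-Hochberg adjusted p under 0.05 over all 18193 genes. Verbs of change are kept for genes that were called. Since each value describes the RNA of a sorted population, fewer cells of a type and less RNA per cell cannot be told apart.

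The sort genes followed the labels. Cd4 lay between -9.20 and -8.39 on the CD8SP arrays and between -6.49 and -3.88 on the DN arrays, while Cd8a lay between -6.84 and -6.35 on the CD4SP arrays. DN replicate 1 and CD8SP replicate 1 stood apart, with the lowest array weights (0.53 and 0.28, against 0.69 to 1.81 on the other arrays). Counts of members and of all other pathway genes without both are given where they were not within 1.5 times the reported count.

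The promoters of the members are shown first, because several of these genes are themselves known targets of NF-κB and changed between the groups. Promoter windows of RefSeq on GRCm38.p6, each from 250 bases before to 50 after an annotated start, were found for 7 of the 9 measured members. Both strands were searched for the kappaB consensus, a site of 10 bases. It matched in windows of 5 of these 7 genes, namely Nfkb2, Rel, Nfkbia, Nfkbie and Bcl3, and in none of Rela and Nfkbib. Over all genes with a window 9.55% had a match. The consensus was chosen with these sequences in view, a match is a description of letters and not a measured binding site, and matches can overlap each other. The upstream 250 bases of Nfkb2 (the first window of 3), Rel and Nfkbia are printed with the matched bases in capitals. For Bcl3, Nfkbie and the Nfkb2 match that its other two windows share, only the match and 10 bases on either side are printed.
Nfkb2, chr19:46304487-46304736, plus strand: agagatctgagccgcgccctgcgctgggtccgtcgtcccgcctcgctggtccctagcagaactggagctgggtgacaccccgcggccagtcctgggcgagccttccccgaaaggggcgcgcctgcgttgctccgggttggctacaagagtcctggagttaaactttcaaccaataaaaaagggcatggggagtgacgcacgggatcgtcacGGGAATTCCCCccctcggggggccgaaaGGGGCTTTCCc
Rel, chr11:23770970-23771219, minus strand: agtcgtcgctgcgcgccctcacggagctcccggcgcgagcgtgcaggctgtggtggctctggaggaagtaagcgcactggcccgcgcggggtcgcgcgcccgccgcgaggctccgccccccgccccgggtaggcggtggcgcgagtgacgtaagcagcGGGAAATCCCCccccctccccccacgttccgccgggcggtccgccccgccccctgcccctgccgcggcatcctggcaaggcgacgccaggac
Nfkbia, chr12:55492648-55492897, minus strand: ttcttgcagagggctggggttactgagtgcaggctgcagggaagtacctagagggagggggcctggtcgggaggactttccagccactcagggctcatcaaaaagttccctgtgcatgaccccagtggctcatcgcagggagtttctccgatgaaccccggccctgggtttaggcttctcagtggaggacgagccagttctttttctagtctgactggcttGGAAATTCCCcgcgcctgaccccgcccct
Bcl3, match at chr7:19822744-19822753, minus strand: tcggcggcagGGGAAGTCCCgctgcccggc
Nfkbie, match at chr17:45555594-45555603, plus strand: gcagcaaacaGGGGGATTCCggaggggcgg
Nfkb2, match at chr19:46305705-46305714, plus strand: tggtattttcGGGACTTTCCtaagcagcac
The Nfkbia match began 29 bases before the start, the Rel matches 92 and 91 bases before it, and those of the first Nfkb2 window 39, 38 and 11 bases before it. The Bcl3 match lay just after the start, at base 3.

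Across the maturation series the members took 3 different courses. Bcl3, Relb, Rel and Nfkb2 were higher in both single-positive subsets than in DN and DP, and Bcl3 and Relb were lower in DP than in DN. Nfkbiz climbed at each step from DN to the single-positive cells. Among the classical inhibitors, Nfkbia was lowest in DN and Nfkbie was highest there, while Rela was not called in any of the 6 comparisons.

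**Figure D1:**
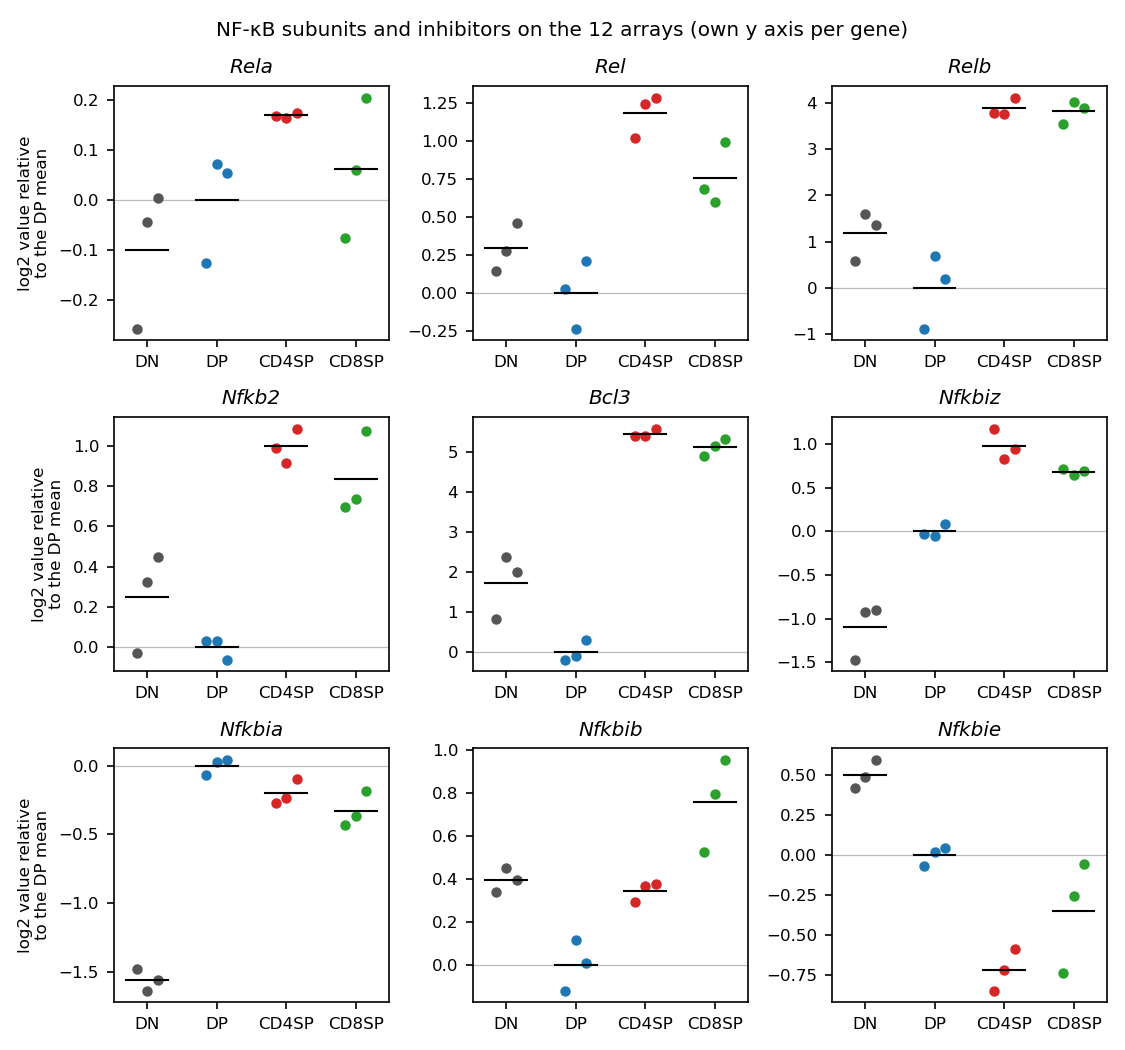
Log2 value relative to the DP mean of each of the 9 measured members on the 12 arrays, with 1 point per array, a black line at the group mean and a separate y axis for each gene. Bcl3 reached 4.90 to 5.60 on the 6 single-positive arrays, whereas Rela stayed between -0.26 and 0.20 on all 12.

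Bcl3, whose protein binds p50 and p52 dimers and can turn them into activators, had the widest range of the set. On the DN arrays its values were 0.82, 2.37 and 2.01, and on the DP arrays -0.20, -0.09 and 0.30. It lay at 5.41, 5.41 and 5.60 in CD4SP and at 4.90, 5.16 and 5.35 in CD8SP. Every single-positive array was thus above every DN array, and every DN array above every DP array. Bcl3 rose from DP by 5.47 ± 0.32 in CD4SP (adjusted p = 3.99e-07, 44.4-fold) and by 5.14 ± 0.32 in CD8SP (adjusted p = 5.9e-07, 35.2-fold). These were the 23rd and 34th largest rises of all genes. From DN to DP it fell by 1.73 ± 0.32 (adjusted p = 0.0015).

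Relb encodes the subunit that pairs with p52 in the alternative pathway. It lay at 0.58, 1.60 and 1.36 in DN and at -0.88, 0.68 and 0.20 in DP. The CD4SP arrays read 3.77, 3.75 and 4.11, and the CD8SP arrays 3.53, 4.02 and 3.88. The single-positive arrays stood clear of all others, whereas DN and DP overlapped and the DP arrays were widely spread. Relb rose from DP by 3.87 ± 0.37 in CD4SP (adjusted p = 1.27e-05, 14.7-fold) and by 3.81 ± 0.37 in CD8SP (adjusted p = 1.31e-05, 14.0-fold). Its fall from DN to DP was 1.18 ± 0.37 (adjusted p = 0.0261), and that call was lost without DN replicate 2 (adjusted p = 0.0975), DN replicate 3 (adjusted p = 0.0762) or DP replicate 1 (a difference of -0.74, adjusted p = 0.079).

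Nfkb2, the gene of the p100 precursor and p52, moved less. Its values were -0.03, 0.33 and 0.45 in DN and 0.03, 0.03 and -0.06 in DP, which overlap. They were 0.99, 0.91 and 1.09 in CD4SP and 0.69, 0.73 and 1.07 in CD8SP, clear of both earlier stages. The rise from DP was 1.0 ± 0.13 in CD4SP (adjusted p = 1.83e-04) and 0.83 ± 0.13 in CD8SP (adjusted p = 5.59e-04). Its 2 probe sets both rose but differed in size, with 1.40 and 0.60 in CD4SP and 1.18 and 0.49 in CD8SP. DP and DN differed by -0.25 ± 0.13 and were not called (adjusted p = 0.183), and here the probe sets disagreed. The one with the larger rises fell by 0.57 from DN to DP (adjusted p = 0.032), and the other gave 0.07 (adjusted p = 0.773). The mean of both was called without DN replicate 1, at -0.39 (adjusted p = 0.033), and with array weights, at -0.31 (adjusted p = 0.045). It was also called without DN replicate 1 and CD8SP replicate 1 together, at -0.39 (adjusted p = 0.0238).

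Rel encodes c-Rel, a subunit prominent in lymphocytes. It lay at 0.15, 0.27 and 0.46 in DN and at 0.03, -0.23 and 0.21 in DP. In CD4SP it lay at 1.02, 1.24 and 1.29 and in CD8SP at 0.69, 0.60 and 1.0, so that the 2 single-positive subsets did not overlap each other or the earlier stages. Rel rose from DP by 1.18 ± 0.15 in CD4SP (adjusted p = 9.06e-05) and by 0.76 ± 0.15 in CD8SP (adjusted p = 0.00171). The difference between CD4SP and CD8SP, 0.42 ± 0.15, missed the threshold (adjusted p = 0.0862, 95% interval 0.10 to 0.75), and it passed without CD8SP replicate 3 (adjusted p = 0.0493).

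Rela encodes the subunit of the classical p50 and p65 dimer. Its values were -0.26, -0.04 and 0.00 in DN, -0.13, 0.07 and 0.05 in DP, 0.17, 0.16 and 0.17 in CD4SP and -0.08, 0.06 and 0.20 in CD8SP. Neighbouring groups in the order DN, DP, CD8SP, CD4SP were not separated. The widest difference was CD4SP minus DN, at 0.27 ± 0.10 (adjusted p = 0.0509), just short of the threshold. It passed in 9 of 22 alternatives, and over all 22 the adjusted p ran from 0.0143 to 0.42. Its 95% interval, 0.05 to 0.49, lay far below the rises of Bcl3 and Relb between the same groups (3.74 ± 0.32 and 2.69 ± 0.37).

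Nfkbiz encodes IκBζ, a nuclear cofactor of NF-κB. It lay at -1.47, -0.92 and -0.90 in DN and at -0.03, -0.06 and 0.09 in DP. It lay at 1.18, 0.82 and 0.95 in CD4SP and at 0.71, 0.64 and 0.69 in CD8SP. No 2 of the 4 groups overlapped. Nfkbiz rose by 1.10 ± 0.15 from DN to DP (adjusted p = 1.69e-04), by 0.98 ± 0.15 from DP to CD4SP (adjusted p = 3.9e-04) and by 0.68 ± 0.15 from DP to CD8SP (adjusted p = 0.00381). CD4SP and CD8SP differed by 0.30 ± 0.15 and were not called (adjusted p = 0.223). Of its 3 probe sets, 1 differed from DP by only 0.44 in CD4SP (adjusted p = 0.137) and 0.19 in CD8SP (adjusted p = 0.517), against 0.87 to 1.30 for the other two. All 3 differed in the same direction between DN and DP, by 0.88 to 1.33.

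Nfkbia encodes IκBα, which NF-κB itself induces and which then ends the response. It lay at -1.48, -1.64 and -1.56 in DN and at -0.07, 0.03 and 0.04 in DP. In CD4SP the values were -0.27, -0.24 and -0.10, and in CD8SP -0.44, -0.37 and -0.18. The DN arrays were far below all others, which lay between -0.44 and 0.04. Nfkbia rose by 1.56 ± 0.09 from DN to DP (adjusted p = 4.66e-07, 2.95-fold), the 183rd largest rise of all genes. From DP it fell by 0.33 ± 0.09 in CD8SP (adjusted p = 0.0139). That call was lost without DP replicate 3 (adjusted p = 0.0504), and the 5 probe sets ranged from -0.53 to -0.08. The difference between CD4SP and DP was -0.20 ± 0.09 and was not called (adjusted p = 0.117).

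Nfkbie encodes IκBε, an inhibitor that holds mainly c-Rel and RelA dimers. It ran opposite to Nfkbia at the first step. It lay at 0.42, 0.49 and 0.60 in DN, at -0.07, 0.02 and 0.05 in DP, at -0.85, -0.72 and -0.59 in CD4SP and at -0.74, -0.26 and -0.05 in CD8SP. The CD8SP arrays spread so widely that they overlapped both CD4SP and DP. Nfkbie fell by 0.50 ± 0.15 from DN to DP (adjusted p = 0.0229) and by 0.72 ± 0.15 from DP to CD4SP (adjusted p = 0.00356), and its 2 probe sets moved alike. The first of these calls was lost when any of DN replicate 2 or 3 or DP replicate 1 or 2 was left out (adjusted p from 0.0522 to 0.0731). In CD8SP it differed from DP by -0.35 ± 0.15 (adjusted p = 0.0925), a difference called without CD8SP replicate 3 (adjusted p = 0.0208). CD4SP lay below CD8SP by 0.37 ± 0.15 without a call (adjusted p = 0.142), which was called without CD8SP replicate 1 (adjusted p = 0.00721).

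Nfkbib encodes IκBβ. Its mean values were 0.34, 0.45 and 0.39 in DN, -0.12, 0.11 and 0.01 in DP, 0.29, 0.37 and 0.37 in CD4SP and 0.53, 0.80 and 0.96 in CD8SP. DP was lowest and CD8SP highest without overlap, and DN and CD4SP overlapped in between. Nfkbib fell by 0.40 ± 0.11 from DN to DP (adjusted p = 0.0153) and rose from DP by 0.34 ± 0.11 in CD4SP (adjusted p = 0.033) and by 0.76 ± 0.11 in CD8SP (adjusted p = 2.47e-04). CD8SP was above CD4SP by 0.42 ± 0.11 (adjusted p = 0.0306). These calls rest on 1 of its 2 probe sets. The first, designed on an expressed sequence tag, fell by 0.63 from DN to DP, rose from DP by 0.42 in CD4SP and by 1.12 in CD8SP, while CD4SP minus CD8SP was -0.70. The second, designed on a RefSeq transcript, gave -0.16, 0.27, 0.40 and -0.13 in the same order and was called in none of these (adjusted p from 0.0897 to 0.686). For the mean of both, the call from DN to DP depended on DN replicate 2 (adjusted p = 0.0541 without it) and DP replicate 1 (adjusted p = 0.0608 without it). The rise in CD4SP was lost when any 1 CD4SP array, or DP replicate 1 or 3, was left out (adjusted p from 0.0542 to 0.114). CD8SP above CD4SP was lost when any 1 CD4SP array, or CD8SP replicate 2 or 3, was left out (adjusted p from 0.0747 to 0.1). In CD8SP against DN Nfkbib was higher by 0.36 ± 0.11 (adjusted p = 0.0209), a call lost without DN replicate 1 or 3 or CD8SP replicate 2 or 3 (adjusted p from 0.0502 to 0.0753).

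**Figure D2:**
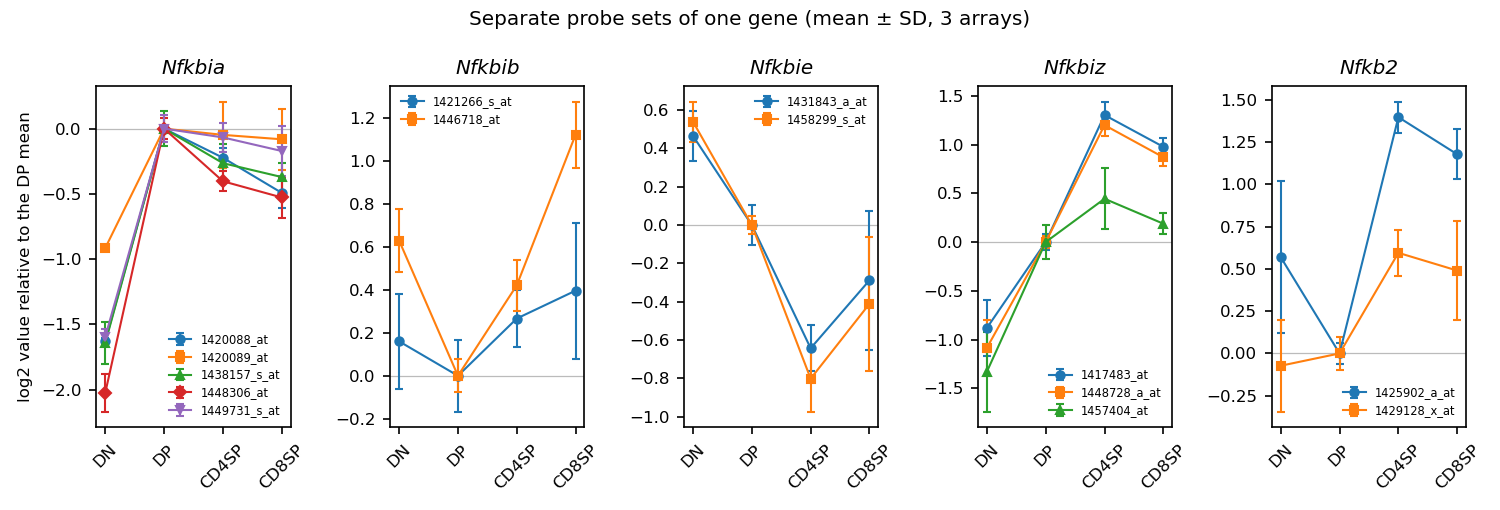
Mean ± SD over 3 arrays of every probe set of the 5 members with more than 1, in log2 relative to the DP mean, for the 4 groups. The 5 Nfkbia probe sets all lie below DP in DN (by 0.91 to 2.02), while the 2 Nfkbib probe sets part in CD8SP (1.12 and 0.40).

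Counted by comparison, DP cells set against DN cells gave 2 of the 9 members higher (Nfkbia and Nfkbiz) and 4 lower (Bcl3, Relb, Nfkbib and Nfkbie). Over all genes 17.8% were called higher and 18.8% lower. The number of lower members was 1 without DN replicate 2 or DP replicate 1 and 2 without DN replicate 3, so only the calls of Bcl3, Nfkbia and Nfkbiz were kept in each case of an array left out. In CD4SP against DP 6 members were higher (Bcl3, Relb, Rel, Nfkb2, Nfkbiz and Nfkbib) and 1 was lower (Nfkbie), against a background of 16.4% higher and 16.2% lower. In CD8SP against DP the same 6 were higher and 1 was lower (Nfkbia), where 18.2% of all genes were higher and 20.9% lower. Without DP replicate 3 no member was called lower in CD8SP, and without CD8SP replicate 3 both Nfkbia and Nfkbie were. The median difference over the members was 0.98 in CD4SP and 0.76 in CD8SP, against 0.04 and 0.00 over all genes. The 3 comparisons with DP share its 3 arrays.

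**Figure D3:**
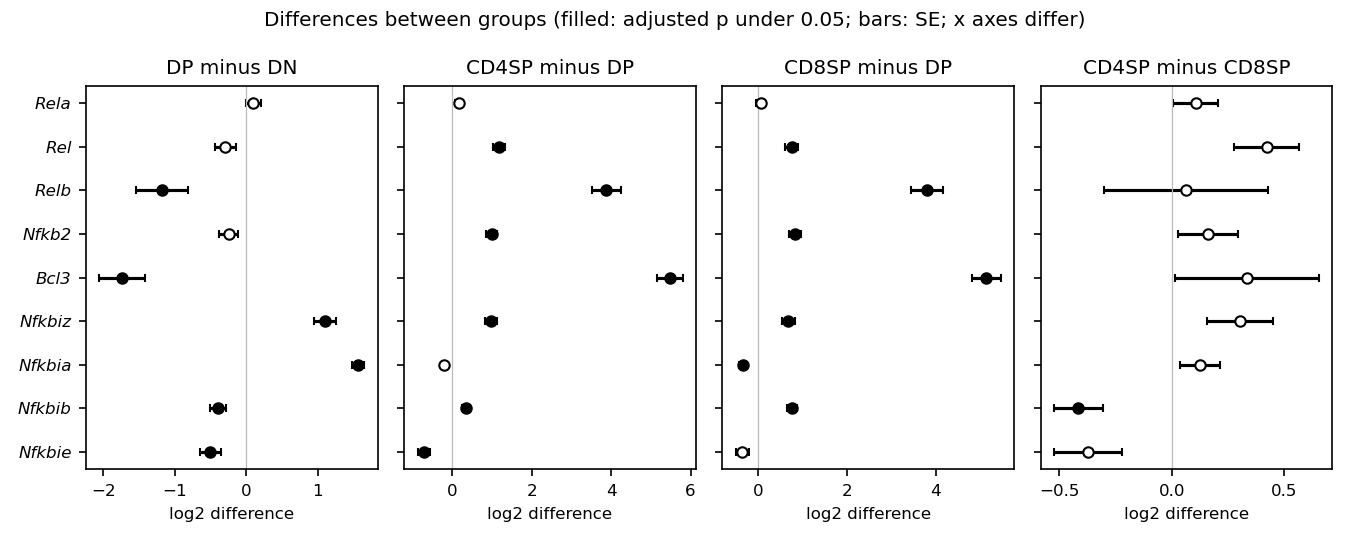
Log2 difference of each measured member in 4 comparisons, with bars of 1 SE from the limma fit and filled points where the adjusted p is under 0.05 (x axes differ between panels). Bcl3 and Relb lie apart from the rest in both comparisons of single-positive with DP cells, at 5.47 and 3.87 in CD4SP and 5.14 and 3.81 in CD8SP.

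Between CD4SP and CD8SP, where 7.78% of genes were higher in CD4SP and 4.91% lower, 0 members were called higher in CD4SP and 1 was lower, Nfkbib. At an unadjusted p under 0.05 Rel was also higher, and Nfkbie lower. That count of lower members was 2 without CD8SP replicate 1, when Nfkbie joined Nfkbib, and 0 when any 1 CD4SP array, or CD8SP replicate 2 or 3, was left out. For the members that changed most, the data bound the difference only loosely. The 95% interval of CD4SP minus CD8SP was -0.74 to 0.87 for Relb and -0.38 to 1.04 for Bcl3, and it was -0.14 to 0.46 for Nfkb2.

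The single-positive subsets were also set against DN cells, which removes the DP arrays from the comparison. In CD4SP 6 members were higher and 1 lower than in DN (background 22.6% and 21.0%), and in CD8SP 7 were higher and 1 lower (background 18.7% and 22.3%). Bcl3 was 3.74 ± 0.32 higher in CD4SP and 3.41 ± 0.32 higher in CD8SP than in DN. Relb was 2.69 ± 0.37 and 2.63 ± 0.37 higher. Nfkbiz was 2.08 ± 0.15 and 1.78 ± 0.15 higher, and Nfkbia 1.36 ± 0.09 and 1.23 ± 0.09 higher. Nfkbie was the member called lower, by -1.22 ± 0.15 and -0.85 ± 0.15. Rel in CD8SP differed from DN by 0.46 ± 0.15 (adjusted p = 0.0257), a call lost without DN replicate 1 or 2 or CD8SP replicate 3 (adjusted p from 0.066 to 0.0921), and without DN replicate 1 and CD8SP replicate 1 together (adjusted p = 0.104).

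Markers of other cell types moved with the DN values. In the DN gate 3 of 8 measured B cell markers, 7 of 8 NK and innate lymphoid markers, 6 of 14 myeloid and dendritic cell markers and 4 of 4 γδ T cell markers were called higher than in DP. Over all genes 18.8% were higher in DN than in DP and 17.8% lower. The markers with the lowest adjusted p in each list, as DP minus DN, were Ms4a1 (-4.96 ± 0.52), Tyrobp (-3.49 ± 0.35), S100a9 (-7.61 ± 0.67) and Trgv4 (-6.56 ± 0.23). Of 7 regulatory T cell markers 3 were higher in DN and 2 lower. Of 12 thymic stroma markers 2 were higher in DN, and of 4 erythroid markers 0 were. Among the DN arrays the one lowest for these lists was also lowest for Bcl3 and Relb. The mean B cell marker value was 0.50 on DN replicate 1 and 1.85 and 1.57 on replicates 2 and 3, and the myeloid mean was 1.55, 2.12 and 2.62 in the same order. For Bcl3 the same arrays read 0.82, 2.37 and 2.01. Without DN replicate 1 the DP minus DN difference was -2.19 for Bcl3 and -1.48 for Relb. The part of these cells in the DN values was not tested, and since values are relative to DP, which markers are absent cannot be told.

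Marker lists moved in the single-positive groups too. Over all genes 16.4% rose and 16.2% fell from DP in CD4SP, and 18.2% rose and 20.9% fell in CD8SP. Regulatory T cell markers, of which 5 of 7 rose from DP in either subset, averaged 1.86 to 2.01 on the CD4SP arrays and 0.83 to 0.93 on the CD8SP arrays, against -0.02 to 0.03 on the DP arrays. Gpr83 was highest of the list in both subsets (4.23 to 4.59 in CD4SP, 3.30 to 3.56 in CD8SP), and Tnfrsf4 lay at 3.53 to 3.83 in CD4SP. Foxp3 lay at 0.39 to 0.68 in CD4SP and -0.005 to 0.28 in CD8SP, against -0.31 to 0.34 in DP. The NK and innate lymphoid list averaged 0.80 to 0.97 in CD4SP, where 3 of 8 genes rose from DP, and 1.89 to 2.21 in CD8SP, where 4 of 8 rose. Its CD8SP mean was carried by Klrd1 (5.90 ± 0.42 above DP), Eomes (4.73 ± 0.63) and Il2rb (4.36 ± 0.36), whereas Tyrobp lay between -0.16 and 0.00. The B cell list averaged -0.69 to -0.46 in CD4SP, where 2 of 8 genes fell, and -0.13 to 0.04 in CD8SP, where 0 of 8 were called. Its CD4SP mean rests largely on Cd79b (-4.55 ± 0.44 against DP), and the median difference of the list was -0.05. These genes of the regulatory T cell, NK and B cell lists are named after their values were seen. The myeloid list averaged -0.08 to 0.22 over both subsets. Bcl3 lay at 4.90 or more on all 6 of these arrays. The part of regulatory and NK-like cells in the members' rise was not tested. The dissociation and heat shock list, which holds genes induced by handling, averaged 0.16 to 0.61 in CD4SP, 0.03 to 0.21 in CD8SP, -0.14 to 0.01 in DN and -0.06 to 0.05 in DP. Its part was not tested either.

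**Figure D4:**
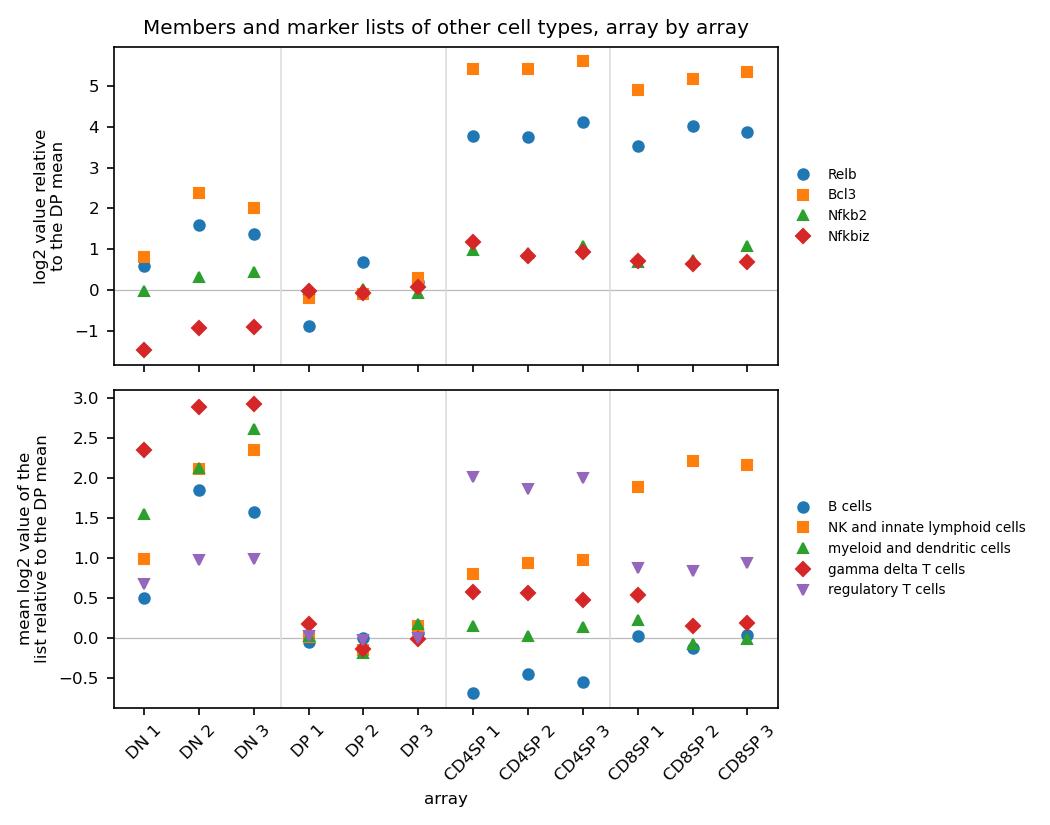
Upper panel, log2 values relative to the DP mean of Relb, Bcl3, Nfkb2 and Nfkbiz on each of the 12 arrays. Lower panel, the mean log2 value of 5 marker lists on the same arrays. DN replicate 1 is lowest of the DN arrays for all 4 members and all 5 lists.

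Beyond the members, 82 of 89 listed genes of the pathway had values. From DN to DP 27 were higher and 22 lower. In CD4SP against DP 35 were higher and 13 lower, and in CD8SP against DP 38 were higher and 15 lower, against the background shares given above. Their median difference was 0.42 in CD4SP and 0.34 in CD8SP. Between CD4SP and CD8SP, where 7.78% of all genes were higher in CD4SP and 4.91% lower, 21 listed genes were higher and 3 lower. The number lower was 8 without CD8SP replicate 1, 11 without that array and DN replicate 1, and 1 without CD4SP replicate 2 or 3 or CD8SP replicate 3. Against DN, 46 were higher and 9 lower in CD4SP, and 37 were higher and 12 lower in CD8SP.

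At the receptors and ligands, 10 of 19 genes rose and 3 fell from DP in CD4SP, with the same counts in CD8SP. Over all genes 16.4% rose and 16.2% fell in CD4SP, and 18.2% rose and 20.9% fell in CD8SP. Tnfrsf4, which encodes the costimulatory receptor OX40, rose by 3.71 ± 0.12 in CD4SP, and Tnfrsf9, which encodes 4-1BB, rose by 3.45 ± 0.23 in CD4SP and 3.24 ± 0.23 in CD8SP. Tnfsf11 encodes RANKL, a ligand by which thymocytes signal to the thymic epithelium. It rose by 4.77 ± 0.33 in CD4SP, and Tnf rose by 1.36 ± 0.13 in CD8SP, as did the TNF receptor gene Tnfrsf1b (1.5 ± 0.15). Between the single-positive subsets, where 7.78% of all genes were higher in CD4SP and 4.91% lower, 5 of the 19 were higher and 0 lower. The 3 with the lowest adjusted p were Tnfrsf4 (3.30 ± 0.12), the costimulatory receptor gene Cd28 (1.63 ± 0.11) and Cd40lg (1.25 ± 0.20), and Tnfsf11 differed by 1.88 ± 0.33. From DN to DP 6 were higher and 6 lower, where 17.8% of all genes were higher and 18.8% lower. The rises included Tnfrsf1a (1.10 ± 0.09), Cd28 (1.04 ± 0.11) and Cd27 (1.37 ± 0.16). Tnfsf11 (-2.73 ± 0.33) and Tnfrsf9 (-1.73 ± 0.23) fell, and these falls are given after their values were seen. In CD8SP Tnfsf11 differed from DN by 0.15 ± 0.33 and was not called (adjusted p = 0.736). Tnfrsf4 and Tnfrsf18 also stand in the regulatory T cell list, as does Il2ra of the targets described further on.

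The adaptors that link the T cell receptor and TNF receptors to the IκB kinases split evenly at the last step. Of 18 measured genes 6 rose and 5 fell in CD4SP against DP, and 6 rose and 6 fell in CD8SP against DP. Over all genes 16.4% rose and 16.2% fell in CD4SP, and 18.2% rose and 20.9% fell in CD8SP. Malt1, the protease of the complex that couples the T cell receptor to NF-κB, rose by 1.53 ± 0.10 in CD4SP and 1.42 ± 0.10 in CD8SP, and the adaptor gene Traf5 by 1.26 ± 0.13 and 1.25 ± 0.13. Prkcb, a protein kinase C gene, fell by 1.49 ± 0.11 in CD4SP, and the ubiquitin ligase gene Traf6 fell by 0.71 ± 0.07 in CD8SP. From DN to DP 10 rose and 0 fell, where 17.8% of all genes rose and 18.8% fell. The list median was 0.44 against 0.04 over all genes. The rises included Prkcb (1.16 ± 0.11), Tab2 (0.60 ± 0.08) and Traf6 (0.45 ± 0.07). Between CD4SP and CD8SP 4 were higher in CD4SP and 1 lower, where 7.78% of all genes were higher and 4.91% lower. Traf6 (0.30 ± 0.07), the ubiquitin ligase gene Birc3 (0.62 ± 0.14) and the kinase gene Map3k7 (0.54 ± 0.12) had the lowest adjusted p.

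Of the 5 measured IκB kinase genes, the NF-κB related kinase gene Ikbke changed most. It read 2.23, 2.38 and 2.26 on the CD4SP arrays, 1.56, 1.59 and 1.54 on the CD8SP arrays and -0.80, -0.50 and -0.66 on the DN arrays, with no overlap between groups. Ikbke rose from DP by 2.29 ± 0.09 in CD4SP (adjusted p = 3.78e-08) and by 1.56 ± 0.09 in CD8SP (adjusted p = 4.36e-07), and CD4SP was above CD8SP by 0.73 ± 0.09 (adjusted p = 7.65e-04). Map3k14, which encodes NIK of the alternative pathway, rose by 0.73 ± 0.15 in CD4SP (adjusted p = 0.00351), while in CD8SP its difference of 0.38 ± 0.15 was not called (adjusted p = 0.0722). Both genes rose from DN to DP, by 0.65 ± 0.09 and 0.49 ± 0.15. The catalytic and scaffold subunit genes Ikbkb and Ikbkg were called in none of the comparisons with DP, with differences from -0.32 to 0.03 in the single-positive subsets. Against DN, Ikbkb was called higher in CD4SP, by 0.23 ± 0.08 (adjusted p = 0.0488). Ikbkb and Ikbkg are named for their place in the complex, after their values were seen. Chuk, a further IκB kinase gene on the list, had no value, so the complex was not fully measured.

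Among 15 genes listed as other IκB proteins and brakes of the pathway, 5 rose and 3 fell in CD4SP and 6 rose and 3 fell in CD8SP against DP. Over all genes 16.4% rose and 16.2% fell in CD4SP, and 18.2% rose and 20.9% fell in CD8SP. The list of 15 also holds Fbxw11 and Btrc, ubiquitin ligase subunits that recognise marked IκB and so are not brakes. Fbxw11 fell from DP in both subsets, and Btrc fell in CD8SP by 0.27 ± 0.07. Btrc is named for that role, after its values were seen. Nfkbid encodes IκBNS, a nuclear IκB protein like those of Bcl3 and Nfkbiz. It read 0.19, 0.25 and 0.14 in DN, 2.43, 1.89 and 2.05 in CD4SP and 1.24, 1.38 and 1.27 in CD8SP, and the single-positive subsets did not overlap. Nfkbid rose from DP by 2.12 ± 0.12 in CD4SP and 1.29 ± 0.12 in CD8SP, and the subsets differed by 0.83 ± 0.12 (adjusted p = 0.0016). Tnfaip3, which encodes the deubiquitinase A20 and is itself an NF-κB target, was highest in DP. It rose by 1.37 ± 0.12 from DN to DP and fell by 0.96 ± 0.12 in CD4SP and by 1.60 ± 0.12 in CD8SP. Its values in CD8SP (-1.72, -1.53 and -1.54) overlapped those in DN (-1.66, -1.27 and -1.18), whereas Nfkbia stayed well above DN there. Tank, an adaptor that can restrain the pathway, rose by 1.26 ± 0.10 in CD4SP and the A20-binding protein gene Tnip2 by 1.49 ± 0.13, and Fbxw11, a ubiquitin ligase subunit that recognises marked IκB, fell by 0.81 ± 0.07 in CD8SP. From DN to DP 6 were higher and 3 lower, where 17.8% of all genes were higher and 18.8% lower. These included Tnip1 (0.96 ± 0.16) and the repressor gene Nkrf (-0.99 ± 0.15). Between CD4SP and CD8SP 6 were higher in CD4SP and 0 lower, where 7.78% of all genes were higher and 4.91% lower. Tnip2 (0.92 ± 0.13), Nfkbid and Fbxw11 (0.50 ± 0.07) had the lowest adjusted p of the list. Tnfaip3 was also higher, by 0.64 ± 0.12.

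Of 25 measured genes known as NF-κB targets, 12 rose and 2 fell in CD4SP and 15 rose and 3 fell in CD8SP against DP. Over all genes 16.4% rose and 16.2% fell in CD4SP, and 18.2% rose and 20.9% fell in CD8SP. The cyclin gene Ccnd2 rose by 6.62 ± 0.31 and 6.70 ± 0.31, the class I gene H2-K1 by 3.92 ± 0.20 and 4.01 ± 0.20, and the interferon regulatory factor gene Irf1 by 2.21 ± 0.11 and 2.08 ± 0.11. From DN to DP 3 were higher and 13 lower, where 17.8% of all genes were higher and 18.8% lower. The list median was -0.64. Myc fell by 3.71 ± 0.16 and the interleukin 2 receptor gene Il2ra by 4.56 ± 0.29, while the survival gene Bcl2l1 rose by 2.25 ± 0.15. Between the single-positive subsets, where 7.78% of all genes were higher in CD4SP and 4.91% lower, 5 of the 25 were higher and 2 lower. Irf4 was higher by 1.51 ± 0.21 and the caspase inhibitor gene Xiap by 0.48 ± 0.08, while the adhesion molecule gene Icam1 was lower, at -1.41 ± 0.21. These targets were listed from general knowledge, and other factors are known to control most of them.

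**Figure D5:**
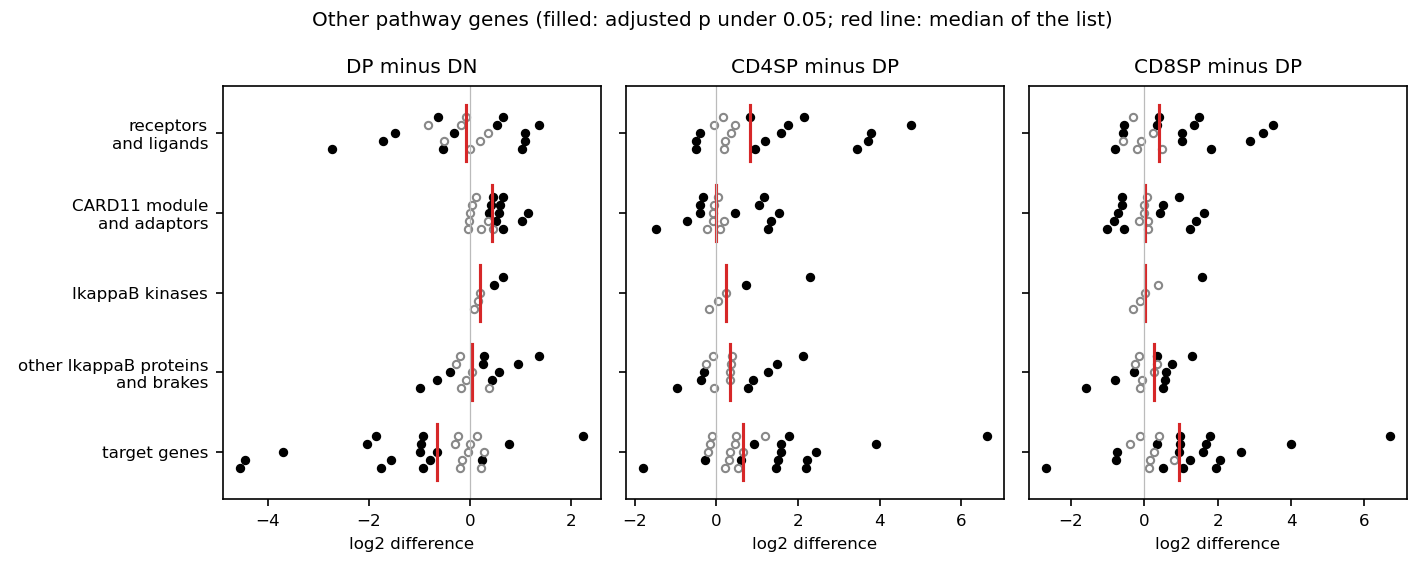
Log2 differences of the other measured pathway genes by list in 3 comparisons, with 1 point per gene, filled where the adjusted p is under 0.05, and a red line at the median of the list. Medians of the target genes lie at -0.64 from DN to DP and at 0.66 and 0.94 in CD4SP and CD8SP against DP.

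Within the set, the pair with the most alike courses was Nfkb2 and Rel, whose values differed by a root mean square of 0.17 over the 12 arrays. For members whose group means spanned at least 1, the nearest of all 18193 genes were named by the same measure, as a description. Nearest to Bcl3 were the class I transactivator gene Nlrc5 (0.24), the transcription factor gene Klf2 (0.24) and Card6 (0.34). Nearest to Relb were the lymphotoxin gene Lta (0.31), Irf7 (0.32) and Ephx1 (0.32). Lta, itself on the list of ligands, had group means of 0.82 in DN, 3.78 in CD4SP and 3.51 in CD8SP, against 1.18, 3.87 and 3.81 for Relb. Nearest to Rel were Tbc1d1 (0.15), Arhgef4 (0.17) and Nfkb2 (0.17), and nearest to Nfkbiz Trim12a (0.10), Tnik (0.16) and Zbtb4 (0.18). Nfkbia lay nearest to Abca3 (0.15), Stambpl1 (0.16) and Mindy2 (0.17), and Nfkbie to Nsmaf (0.10), Taf5l (0.13) and Dnaaf2 (0.13). Genes that change little lie near many others by this measure, and all 12 arrays share the DP reference.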

How the data were processed

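The authors deposited 1 table of log values, taken here as log2, for 45101 probe sets on 12 arrays. In it the mean of the 3 DP arrays is 0 for every probe set to within 1.27e-06. MAS5 is named per the submitters' processing notes, with no version or role. The base of the logarithm, the step that subtracted the DP mean and the genome build are not given in the sources used here, and a fold would differ under another base. DN replicate 1 holds values rounded to 3 decimals.

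After 64 control probe sets were left out, 34945 had 1 gene symbol in the platform annotation, 932 had several and 9211 had none. Probe sets were averaged to 18193 genes. No filter on dim probes was possible, since levels are lost. Differences came from limma (version 3.58.1, under R 4.3.3), as contrasts between 4 group means with moderated variances and no trend (two-sided, Benjamini-Hochberg over all genes within each of 6 comparisons). The fit was tested on simulated data. The 3 arrays per group limit the precision.

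All members are named, with at most 3 called genes of lowest adjusted p per pathway list and comparison, the top marker of lists of other cell types, the sort genes and the 3 genes nearest each member by root mean square difference. The members, lists and rules were chosen with earlier results of these data known. Alternatives covered the choice of probe set, normalization, variance model, array weights, replicate numbers and arrays left out. The labels do not say what arrays of one number share, and the numbers were not used to pair arrays in the reported fit. Same-numbered arrays did deviate together in part (residual correlations from -0.03 to 0.16, against -0.16 to 0.08 for different numbers). Pairs numbered 1 lay at 0.11 to 0.16, above all pairs of different numbers. Calls with a replicate block are therefore given below.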

Additional observations from a re-analysis of the deposited data

Results flagged for a closer look

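The change of Nfkbib, the gene of IκBβ, from DP differed between the single-positive subsets, by -0.42 ± 0.11 (CD4SP minus CD8SP, limma adjusted p = 0.0306). All 3 CD8SP arrays (0.53 to 0.96) lay above all 3 CD4SP arrays (0.29 to 0.37). One of its probe sets gave -0.70 ± 0.11 (adjusted p = 0.0029) and the other gave -0.13 ± 0.17 (adjusted p = 0.686). Groups of 3 arrays are too small for a search for outlying arrays.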

How the results depend on the processing

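Of 54 differences (9 members in 6 comparisons), 29 kept their side of the threshold under every alternative run, 17 lost a call in at least 1 and 8 gained one. A change of sign with a call on either side occurred in 0. Uncalled differences could change sign. Those were Nfkb2 in DP minus DN (-0.57 to 0.07) and Rela in CD8SP minus DP (-0.01 to 0.13). Relb in CD4SP minus CD8SP (-0.08 to 0.19) and Nfkbib in CD4SP minus DN (-0.21 to 0.11) did so too. Members called lower in DP than in DN, 4 as reported, numbered 1 after quantile normalization and 1 to 5 with an array left out. In CD4SP against DP, 1 lower member became 2 with the probe set of smallest spread, with array weights and with each probe set fitted by itself. In CD8SP against DP, 6 higher members became 3 after quantile normalization. There, 1 lower member became 0 with the probe set of highest mean and after quantile normalization, 2 with a factor for arrays numbered 1, and 0 to 2 with an array left out. In CD4SP against CD8SP, 0 higher members became 1 with the probe set of smallest spread and 0 to 1 with an array left out. There, 1 lower member became 0 after quantile normalization and with only the 6 arrays compared. It became 2 with array weights, with a factor for arrays numbered 1, and without the first DN and first CD8SP arrays, and 0 to 2 with an array left out. In CD8SP against DN, 7 higher members became 4 after quantile normalization.

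The arrays share only a replicate number, and 10 of 12 correlated best with arrays of their own number. With the replicate block 2 members were lower in CD8SP than in DP (1 without it) and 1 was higher in CD4SP than in CD8SP (0 without it). The calls it added were Nfkbie in CD8SP against DP (adjusted p = 0.0327), Rel in CD4SP against CD8SP (0.0251) and in DP against DN (0.0477), and Rela in CD4SP against DN (0.0206).

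Quantile normalization forces one distribution on the DP arrays, whose spread over genes (SD 0.19 to 0.21) is by construction narrower than that of the others (0.67 to 0.83). It also took the calls of Relb in CD4SP and CD8SP against DP (2.76 and 2.56, adjusted p = 0.0661 and 0.0892) and against DN (2.14 and 1.95, adjusted p = 0.125 and 0.187). Rel lost its calls in CD4SP against DN (0.73, adjusted p = 0.0975) and in CD8SP against DP and DN (0.58 and 0.36, adjusted p = 0.235 and 0.482). Nfkbiz lost its call in CD8SP against DP (0.54, adjusted p = 0.059), as did Nfkbia there, Relb and Nfkbie in DP against DN, and Nfkbib in all its called comparisons except CD8SP against DP. Over all genes it left 3113, 2913, 2760, 229, 4165 and 3134 calls, against 6660, 5942, 7103, 2308, 7942 and 7447, for DP minus DN, CD4SP against DP, CD8SP against DP, CD4SP against CD8SP, CD4SP against DN and CD8SP against DN. Between CD4SP and CD8SP the calls numbered 3578 with array weights, 1374 without CD4SP replicate 3, 1528 without CD4SP replicate 2 and 1348 with only the 6 arrays compared. Of 264 alternative counts of other pathway genes 245 were within 1.5 times the reported count. Signal over background cannot be read from values relative to DP, so dim probe sets could not be told from bright ones.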
